A study of Mastomys natalensis with 4 samples.

Results

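The genes described here make, burn, bind and break down lipids: enzymes of cholesterol synthesis, enzymes of fatty acid synthesis, the machinery of fatty acid oxidation, and proteins that take up, store or release fatty acids. They were taken from a list of 42 mouse gene symbols and matched to the probe sets that the platform annotation gives a single gene symbol. Of the 42 genes 37 were named there, by 50 of 10833 singly named probe sets, which stand for 8251 genes. Acaca, Srebf2, Acsl1, Cpt1b and Hadha were not matched. Of the 37 genes 25 were bright enough to be tested, among 5864 tested genes in all.

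Cells build cholesterol and fatty acids from acetyl-CoA in the cytosol. The transcription factors of the SREBP family switch on the genes of both routes when sterols run low. Fatty acids are broken down by beta-oxidation, in mitochondria after import through the carnitine shuttle and in peroxisomes for a first shortening of long chains, and the PPAR nuclear receptors control many of the genes involved. In the acid-secreting stomach the parietal cell is packed with mitochondria, whereas adipocytes and muscle lie beneath or beside the mucosa.

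Total RNA of gastric mucosa came from Mastomys natalensis, an African rodent whose stomach readily forms tumours of the histamine-producing enterochromaffin-like (ECL) cells. The 2 samples of the later stage had received loxtidine (spelled loxitidine in the labels), an antagonist of the histamine H2 receptor, for 16 weeks and were labelled neoplasia of ECL cells. The 2 samples of the earlier stage had received it for 8 weeks and were labelled hyperplasia. The drug was common to all 4 samples and untreated mucosa was not analysed here, so drug time and lesion stage cannot be told apart and no response to the drug itself was measured. Strain, age and sex are not given in the labels used here, nor is it said whether each sample was a separate animal. The p-values therefore cover only sample-to-sample spread, part or all of which may be technical. Each sample carries a lot batch label of its own, so a batch effect and a sample effect cannot be told apart.

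The arrays were mouse U74 arrays, so rodent RNA of another genus was read with mouse probes. Sequence mismatch dims some probe sets, and a dim reading does not show that the transcript was missing. Median intensity was 19.2 and 18.9 in 16-week mucosa and 15.4 and 17.3 in 8-week mucosa, and 62.4% and 62.3% against 55.3% and 57.9% of the probe sets lay above the floor of 12.15, below which all values were set to 12.15 before log2 was taken. Defining genes of the acid-secreting mucosa were bright in all samples: the proton pump subunit Atp4a read 4850 and 4034 in 16-week mucosa and 4442 and 5304 in 8-week mucosa, and the surface peptide Tff1 between 4094 and 4910. Of the 9 stomach genes checked, histidine decarboxylase (Hdc), which makes histamine in ECL cells, lay below the floor on all 4 arrays.

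On the deposited scale more lipid genes read lower than higher at the neoplastic stage, and none of them passed the test. Of the 25 tested genes 16 read lower and 9 higher at 16 weeks on the brightest probe set of each. In 3 of them, Acads, Elovl6 and Fdps, the probe sets disagreed in sign, and without these 15 read lower and 7 higher, with a median of -0.27. Over the 25 genes the median log2 difference was -0.24 (16 weeks minus 8 weeks, n = 2 per group throughout), beside a median of 0.07 and 44.7% reading lower over all 5864 tested genes. The smallest Benjamini-Hochberg adjusted p among the 25 genes was 0.301 in limma's test, and 0 of 7883 probe sets (0%) were called at an adjusted p under 0.05. Without adjustment 1100 of the 7883 probe sets had a p under 0.05. By that unadjusted rule 4 of the 25 lipid genes (16%) were lower, against 5.78% of all tested genes, and 0 were higher, against 7.54% of all tested genes. The 4 genes were Acaa1b, Pparg, Eci1 and Dbi. In 12 lipid genes (48%) both 16-week readings lay below both 8-week readings, which held for 21.1% of all tested genes, and in 5 (20%) both lay above, which held for 27.5% of all. The 12 include Fdps and the 5 include Acads and Elovl6. Adipoq, also among the 5, passed the filter only through the 16-week samples, so it had to read higher. These shares are a description. In tissue RNA, fewer cells of a type and less RNA per cell cannot be told apart.

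**Figure D1:**
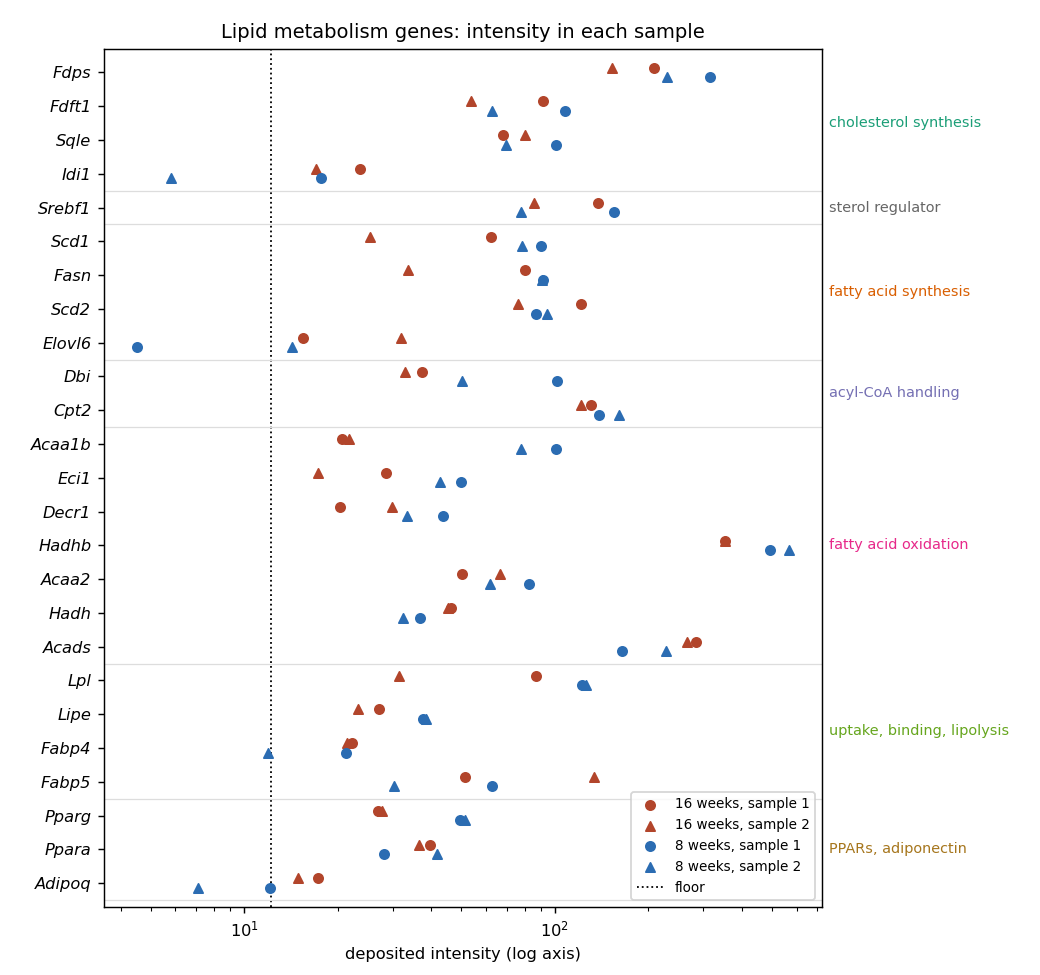
Deposited intensity (log axis) of the 25 tested lipid genes, 1 row per gene on its brightest tested probe set, with 16-week samples in red above 8-week samples in blue and the floor of 12.15 dotted. The groups stand apart in Acaa1b, Pparg and Hadhb, and the 16-week samples lie far from each other in Lpl, Fasn and Fabp5.

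Fatty acid oxidation held the lipid gene with the smallest p, Acaa1b, although Hadh, another step of the route, read higher. Acaa1b encodes a peroxisomal 3-ketoacyl-CoA thiolase, the enzyme that cuts off acetyl-CoA in the last step of each peroxisomal round. It read 20.7 and 21.8 in 16-week mucosa, against 101 and 77.8 in 8-week mucosa. Both later samples were near each other and far below both earlier ones. The log2 difference was -2.06 ± 0.26 (SE), a 4.16-fold lower reading, with an unadjusted p of 0.000469 and a limma adjusted p of 0.301. Counted from the most negative, its difference ranked 12 among the 5864 tested genes. A second, dimmer Acaa1b probe set read 9.9 and 8.2 in 16-week mucosa, against 16.5 and 28.5 in 8-week mucosa, at least 1.78-fold lower because both later values were under the floor. It passed the filter only through the 8-week samples, so it could differ only in that direction and adds no separate support. The closely related gene Acaa1a, given here after its values were seen because the pair share sequence that mouse probes may not separate, read 24.5 and 40.9 in 16-week mucosa and 32.1 and 40.7 in 8-week mucosa, a log2 difference of -0.19 ± 0.34. The Acaa1b difference kept its sign under all 14 alternatives of processing, between -2.28 and -1.45, with adjusted p-values of 0.0926 to 0.595.

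The mitochondrial steps differed from each other. Eci1, the isomerase that moves double bonds of unsaturated fatty acids into place, read 28.5 and 17.3 in 16-week mucosa, against 49.9 and 42.7 in 8-week mucosa (-1.06 ± 0.33, unadjusted p = 0.0234, limma adjusted p = 0.329). The groups did not overlap, and without 16-week sample 2 the difference was -0.70. Decr1, the reductase that works beside Eci1 on unsaturated chains, read 20.3 and 29.8 against 43.5 and 33.4 (-0.63 ± 0.31, limma adjusted p = 0.413), and -0.36 without 16-week sample 1. Hadhb, the thiolase subunit of the mitochondrial trifunctional protein and the brightest of the 25 genes, read 352 and 354 in 16-week mucosa, against 494 and 567 in 8-week mucosa. The later pair was nearly equal and below both earlier values, a difference of -0.58 ± 0.24 (limma adjusted p = 0.364), which was -0.27 after quantile normalization and -0.06 on the hybridisation controls' scale.

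Acaa2, the mitochondrial thiolase for medium and short chains, had overlapping groups, with 50.2 and 66.5 in 16-week mucosa and 82.3 and 61.6 in 8-week mucosa (-0.30 ± 0.29). Hadh, the 3-hydroxyacyl-CoA dehydrogenase for short and medium chains, stood the other way at 46.2 and 45.3 against 36.7 and 32.4 (0.41 ± 0.24, limma adjusted p = 0.470). For Acads, the short-chain acyl-CoA dehydrogenase, the probe sets disagreed. The brighter probe set read 284 and 266 in 16-week mucosa, against 165 and 227 in 8-week mucosa (0.51 ± 0.27), and the other read 25.7 and 57.0 against 49.4 and 86.6 (-0.77 ± 0.50), so no direction is given for this gene. Without Acads 5 of the other oxidation enzymes read lower and 1 higher, with a median of -0.61. On the brightest probe sets of all 7, Acads counted as higher, there were 5 lower and 2 higher, with a median of -0.58 on the deposited scale, -0.34 after quantile normalization, -0.36 without 16-week sample 1 and -0.06 with the arrays aligned on their hybridisation controls. The remaining enzymes of the list gave no comparison. Acadl, Acadm and Ehhadh, which act on long chains, on medium chains and in peroxisomes, stayed below the floor on all arrays, between 2.3 and 11.3, and Acadvl exceeded it on 1 array at 12.8.

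Acyl-CoA handling genes read lower in both cases that could be tested. Dbi, the acyl-CoA binding protein that carries activated fatty acids in the cytosol, read 37.2 and 32.9 in 16-week mucosa, against 102 and 50.4 in 8-week mucosa. Both later values were below both earlier ones, but the earlier ones differed about as much from each other. The difference was -1.03 ± 0.40 (unadjusted p = 0.0471, limma adjusted p = 0.353) and -0.53 without 8-week sample 1. Cpt2, which hands fatty acids from carnitine back to coenzyme A inside mitochondria, read 131 and 122 against 139 and 161 (-0.24 ± 0.24), with a sign that turned to 0.28 on the hybridisation controls' scale. Cpt1a, the outer carnitine transferase that sets the rate of import, stayed below the floor, at 9.0 and 8.4 against 5.4 and 5.5.

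Among the nuclear receptors of the list Pparg and Ppara differed. Pparg, the receptor that drives fat storage and adipocyte formation, read 26.9 and 27.7 in 16-week mucosa, against 49.4 and 51.2 in 8-week mucosa. Readings within each group were nearly equal and the groups did not overlap. The difference was -0.88 ± 0.23, a 1.84-fold lower reading, with an unadjusted p of 0.0119 and a limma adjusted p of 0.309. With any sample left out it lay between -0.91 and -0.86, and on the hybridisation controls' scale it was -0.35. Its probe set is of a type that other transcripts may share. Ppara, the receptor that switches on oxidation genes in liver, read 39.6 and 36.5 in 16-week mucosa and 28.2 and 41.7 in 8-week mucosa, overlapping groups with a difference of 0.15 ± 0.29 that was -0.07 on a common median. Adipoq, the adipocyte hormone adiponectin, read 17.3 and 14.9 in 16-week mucosa, against 12.1 and 7.1 in 8-week mucosa. Both earlier values were under the floor, so it was at least 1.32-fold higher, with a limma adjusted p of 0.477. It passed the filter only through the 16-week samples, so it had to differ in that direction.

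**Figure D2:**
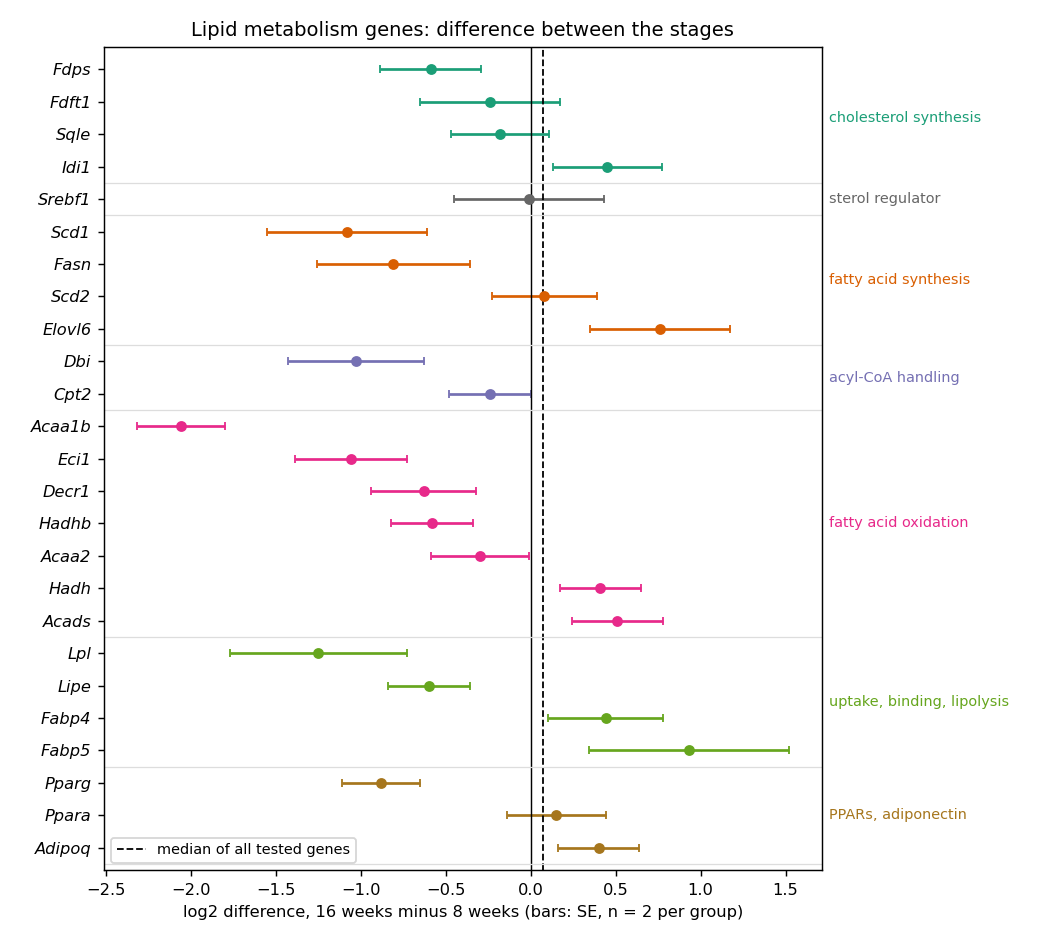
Log2 difference, 16 weeks minus 8 weeks, of the 25 tested lipid genes with the standard error (n = 2 per group), coloured by role, and the median of all tested genes (0.07) as a dashed line. Acaa1b at -2.06 stands furthest from 0, and each role with more than 2 tested genes holds genes on both sides.

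Fatty acid synthesis and lipoprotein lipase showed differences that rested mainly on 1 sample. Fasn, the synthase that builds palmitate, read 80.2 and 33.7 in 16-week mucosa, against 91.3 and 90.9 in 8-week mucosa. Only 16-week sample 2 was clearly low. The difference was -0.81 ± 0.45 (limma adjusted p = 0.459), and without that sample it was -0.18. Scd1, the desaturase that makes oleate, read 62.3 and 25.3 against 90.1 and 78.4, again lowest in 16-week sample 2 (-1.08 ± 0.47, limma adjusted p = 0.383, and -0.43 without that sample). A dimmer Scd1 probe set read 13.2 and 8.5 against 13.2 and 25.2 (-0.53 ± 0.37).

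Scd2, a second desaturase of closely related sequence, read 121 and 76.1 in 16-week mucosa and 87.1 and 94.2 in 8-week mucosa (0.08 ± 0.31), a sign that turned to -0.14 on a common median. Elovl6, which lengthens palmitate, gave opposite readings on its probe sets. The brighter read 15.5 and 32.0 against 4.5 and 14.2 (0.76 ± 0.41), and the other, at 5.7 and 2.4 against 12.9 and 20.9, was at least 1.35-fold lower, having passed the filter only through the 8-week samples. No direction is given for Elovl6. Acly, which supplies cytosolic acetyl-CoA, was above the floor on 1 array only, at 12.6. Without Elovl6 the tested synthesis genes split 2 lower and 1 higher, with a median of -0.81. On the brightest probe sets of all 4, Elovl6 counted as higher, there were 2 lower and 2 higher, with a median of -0.36 on the deposited scale, 0.17 on the hybridisation controls' scale and 0.03 without 16-week sample 2.

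Of the genes for uptake, binding and release of fatty acids, both lipases read lower and both binding proteins higher. Lpl, the lipase that frees fatty acids from circulating lipoproteins at the vessel wall, read 87.1 and 31.4 in 16-week mucosa, against 122 and 126 in 8-week mucosa. The difference was -1.25 ± 0.52 (unadjusted p = 0.0594, limma adjusted p = 0.368) and -0.51 without 16-week sample 2. Lipe, the hormone-sensitive lipase that releases stored fat, read 27.2 and 23.2 against 37.5 and 38.6, groups that did not overlap (-0.60 ± 0.24, limma adjusted p = 0.364, and -0.07 on the hybridisation controls' scale).

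Fabp5, the fatty acid binding protein of squamous epithelia, read 51.5 and 133.7 in 16-week mucosa and 62.6 and 30.3 in 8-week mucosa, a difference of 0.93 ± 0.59 with overlapping groups and of 0.24 without 16-week sample 2. Fabp4, the binding protein of adipocytes, macrophages and capillary endothelium, read 22.2 and 21.4 in 16-week mucosa and 21.3 and 11.9 in 8-week mucosa (0.44 ± 0.34), with 0.03 without 8-week sample 2. Cd36, a fatty acid translocase of the cell surface, had no reading above 5.1 on either probe set.

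Cholesterol synthesis genes gave small differences with overlapping groups, apart from Fdps. Fdps, the farnesyl diphosphate synthase at the branch to sterols and isoprenoids, read 208 and 153 in 16-week mucosa, against 316 and 229.5 in 8-week mucosa (-0.59 ± 0.30, unadjusted p = 0.108, limma adjusted p = 0.428). Its other tested probe sets gave -0.17 ± 0.25, from 209.8 and 183 against 239 and 204, and 0.56 ± 0.59, from 10.3 and 39.9 against 14.6 and 15.3. With the mean of the 3 sets the difference was -0.07. Over the 4 tested genes of the route 3 read lower and 1 higher, with a median of -0.21, or 0.32 on the hybridisation controls' scale and 0.12 without 8-week sample 1.

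The next enzymes on the path, Fdft1 and Sqle, which make squalene and oxidise it, gave -0.24 ± 0.41 and -0.18 ± 0.29, and both signs turned on the hybridisation controls' scale. Fdft1 read 91.3 and 53.5 in 16-week mucosa and 108 and 62.9 in 8-week mucosa. Sqle read 68.0 and 80.2 in 16-week mucosa and 101 and 69.4 in 8-week mucosa. Idi1, the isomerase of the 5-carbon building block upstream of Fdps, read 23.5 and 17 against 17.7 and 5.8 (0.45 ± 0.32), with groups that overlapped. Srebf1, which encodes SREBP-1, the activator of fatty acid synthesis genes, read 138 and 85.9 in 16-week mucosa and 155 and 77.6 in 8-week mucosa, so the samples of each group were further apart than the groups (-0.01 ± 0.44).

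Several sterol genes gave no measurement on the mouse probes. Hmgcs1, Cyp51 and Dhcr7, enzymes of the early, middle and last steps of the route, read between 1.0 and 6.5 in all samples. Lss, which closes the sterol rings, exceeded the floor on 1 array, at 17.1. Insig1, the sterol sensor partner that holds SREBP in the endoplasmic reticulum, read 11.3 and 14.3 in 16-week mucosa, against 1.1 and 4.5 in 8-week mucosa, with 1 reading above the floor, so its size cannot be given.

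**Figure D3:**
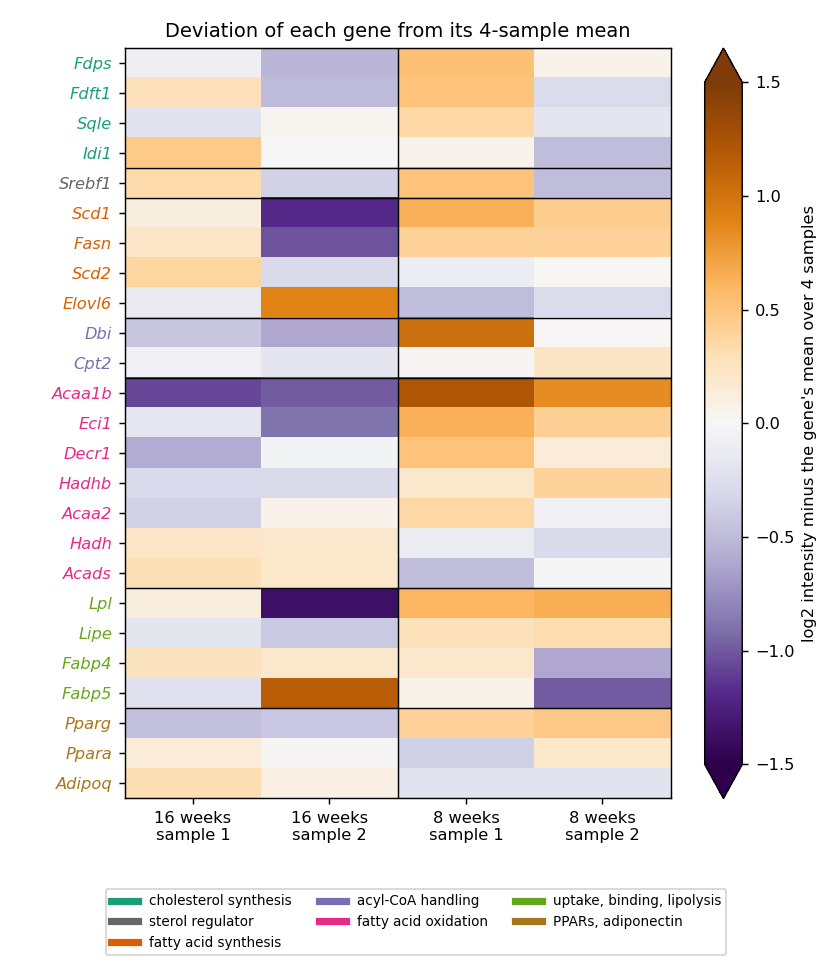
Log2 intensity of each tested lipid gene minus its mean over the 4 samples (orange above, purple below), with 16-week samples on the left and 8-week samples on the right and gene names coloured by role. Acaa1b and Pparg divide by stage, whereas Fasn, Scd1 and Lpl are low in 16-week sample 2 and Srebf1 and Fdft1 are high in sample 1 of each stage.

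Individual samples weighed on the group of genes as a whole. Of the 25 genes 10 (40%) had their lowest reading in 16-week sample 2 and 11 (44%) their highest in 8-week sample 1. Over all tested genes those shares were 26.8% and 17%. The median of the 25 genes was -0.35 when 16-week sample 1 was left out and -0.19 when it was 16-week sample 2. With 8-week sample 1 left out it was -0.13, and with 8-week sample 2 it was -0.51. Brightness moved with direction too. Of the lipid genes 12 of the 16 above the median brightness of 38.7 and 4 of the 9 dimmer ones read lower at 16 weeks. Of all tested genes 52.4% of the brighter and 37% of the dimmer ones did. The part of brightness in these differences was not tested.

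Other genes of the same pathways were examined from lists of 27 sterol genes, 19 lipid synthesis genes and 29 oxidation genes. Of 18 tested oxidation genes 10 read lower and 8 higher with a median of -0.09, or 0.34 on the hybridisation controls' scale, 3 of them lower and 0 higher at an unadjusted p under 0.05, beside 5.78% lower and 7.54% higher over all tested genes. Scp2, a peroxisomal protein with thiolase activity and lipid transfer function, read 120.2 and 108 in 16-week mucosa, against 234.5 and 207 in 8-week mucosa (-0.95 ± 0.24, unadjusted p = 0.0106, limma adjusted p = 0.309). Its probe set is of a type that other transcripts may share. Another Scp2 probe set, too dim to be tested, stood the other way at 19.3 and 6 against 5.2 and 1.5. Etfb, a subunit of the flavoprotein that takes electrons from the acyl-CoA dehydrogenases, read 281 and 173 against 418.5 and 371 (-0.83 ± 0.32, limma adjusted p = 0.355). Ppard, the third PPAR receptor, read 3.8 and 3.7 against 17.9 and 25.6, at least 1.76-fold lower. It is among the 3 and passed the filter only through the 8-week samples, so it had to differ in that direction.

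Of 10 tested sterol genes 5 read lower and 5 higher. Their median was -0.01, with 0.09 after quantile normalization and 0.40 on the hybridisation controls' scale. Nr1h3, the oxysterol receptor LXR alpha, read 20.3 and 6.9 in 16-week mucosa, against 63.9 and 37.3 in 8-week mucosa (-1.64 ± 0.41, unadjusted p = 0.00989, limma adjusted p = 0.309). Npc1, which lets cholesterol out of lysosomes, stood the other way at 35.5 and 39.3 against 26.2 and 18.0 (0.78 ± 0.29, unadjusted p = 0.0418). Abca1, the cholesterol exporter that LXR receptors switch on, read 48.8 and 12.0 in 16-week mucosa and 44.3 and 48.9 in 8-week mucosa, low in 16-week sample 2 alone (-0.93 ± 0.67, and 0.10 on a second probe set).

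Of 8 tested lipid synthesis genes 3 read lower and 5 higher, with a median of 0.14 that turned to -0.08 on a common median and to -0.12 without 8-week sample 1. Dgat1, which completes triglycerides, read 99.7 and 119 in 16-week mucosa, against 256.5 and 155 in 8-week mucosa (-0.87 ± 0.33, unadjusted p = 0.0459), and its second probe set, at 17.1 and 42.5 against 76.5 and 16.0, overlapped between groups. Gpam, which begins triglyceride assembly, read 70.7 and 75.2 against 42.2 and 55.8 (0.59 ± 0.26). Slc25a1, the mitochondrial citrate exporter, read 170.3 and 157 against 271 and 216 (-0.56 ± 0.25), while a second probe set gave 0.49 ± 0.27.

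**Figure D4:**
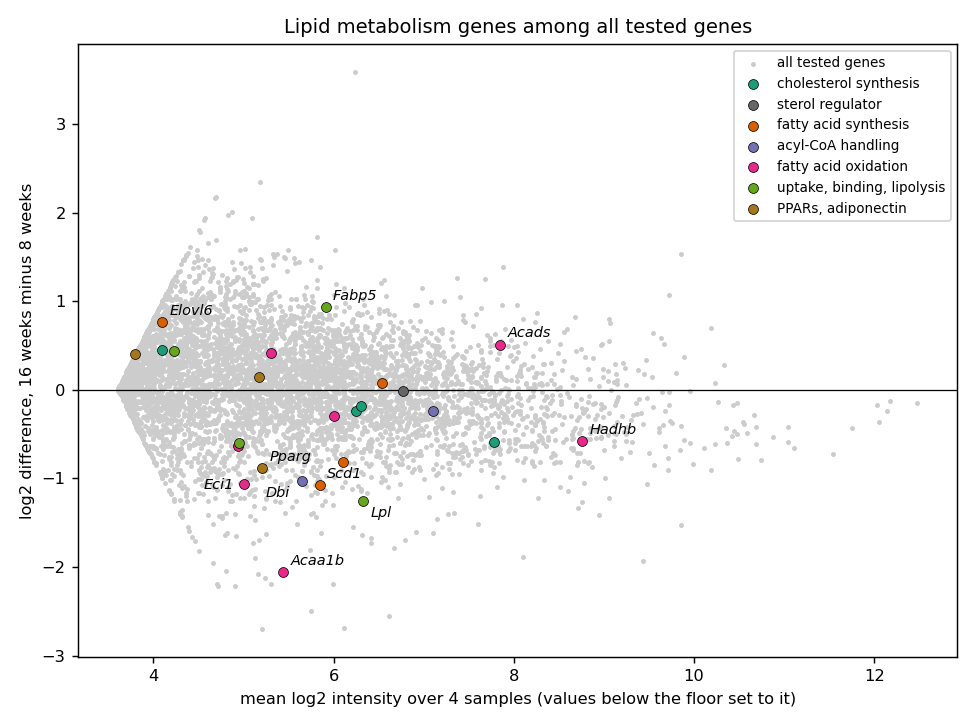
Log2 difference, 16 weeks minus 8 weeks, against mean log2 intensity over the 4 samples for all 5864 tested genes (grey) and the 25 lipid genes (coloured by role). Lipid genes lie within the cloud of all genes, with Acaa1b near its lower edge.

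Markers of cell types that carry these genes did not move in a uniform way, and their part in the lipid gene differences was not tested. Summed intensity of the 10 tested adipocyte markers was 706 and 612 in 16-week mucosa, against 840 and 817 in 8-week mucosa, with 7 lower and 3 higher and a median difference of -0.22, or 0.13 on the hybridisation controls' scale. Within that list the lipid droplet coat Plin2 read 18.6 and 10.7 against 38.4 and 29.2 (-1.16 ± 0.32, unadjusted p = 0.0158) and the glycerol phosphate enzyme Gpd1 119.5 and 85.7 against 227.5 and 171 (-0.96 ± 0.30, unadjusted p = 0.0242). The brown fat uncoupler Ucp1 stood the other way, at 30.7 and 26.1 against 12.9 and 12.2 (1.17 ± 0.24, unadjusted p = 0.00449), on a probe set that other transcripts may share. Resistin (Retn) and Cidec were below the floor throughout, whereas leptin (Lep), the hormone of adipocytes, read 132 and 169.6 against 168 and 154, and the triglyceride lipase Pnpla2 read 198 and 108 against 198 and 216. A second, dimmer Lep probe set read 23.7 and 24.6 against 16.9 and 18.6 (0.45 ± 0.23). The 7 tested parietal cell markers summed to 7890 and 6940 in 16-week mucosa, against 7980 and 9710 in 8-week mucosa, with 4 lower and 3 higher and a median of -0.13, or 0.21 after quantile normalization. Atp4b, the other proton pump subunit, read 915 and 634 against 1091 and 1701 (-0.84 ± 0.35). Ckb also read lower, at 413.9 and 277 against 800.4 and 455.2 (-0.83 ± 0.39), with groups that did not overlap. Kcnq1 stood the other way, at 236.9 and 215.5 against 146.5 and 214.9 (0.35 ± 0.29), with 0.75 ± 0.30 on another probe set. Aqp4 also read higher (0.67 ± 0.56), with groups that overlapped.

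Several intestinal-type markers had their highest reading in 8-week sample 1. The 6 tested enterocyte markers summed to 571 and 316 in 16-week mucosa, against 3260 and 682 in 8-week mucosa. Of the 6, 5 read lower, beside 44.7% of all tested genes. Vil1, among the 5, read 7.2 and 3.1 against 23.3 and 12.5. It passed the filter only through the 8-week samples, so it had to differ in that direction. Apoa4, a lipoprotein of fat-absorbing enterocytes, read 504 and 246 against 2948 and 616, so it alone gave 2948 of the 3260. Lct stood the other way, at 15.7 and 17.3 against 14.4 and 10.2. The liver and gut apolipoprotein Apoa1 read 15.6 and 11.6 against 267 and 11.7. Without 8-week sample 1 the difference was -1.87 for Acaa1b, -0.91 for Pparg and -0.53 for Dbi. For Eci1 the difference lay between -1.42 and -0.7 with any sample left out. Apoa4 was above both later samples in 8-week sample 2 as well. The part of intestinal-type tissue in these differences was not tested.

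Squamous markers varied in the other stage, where 16-week sample 2 was high. The 5 tested genes summed to 276 and 1010 in 16-week mucosa, against 451 and 422 in 8-week mucosa. That sample also had the highest Fabp5 and the lowest Fasn, Scd1 and Lpl. Endothelial markers summed to 198 and 191 against 181 and 193 (3 lower and 4 higher, median 0.38). Tek, among the 4, passed the filter only through the 16-week samples, so it had to read higher. The endothelial median was -0.26 among genes above the floor on all 4 arrays. Macrophage markers summed to 249 and 252 against 250 and 279 (4 lower and 1 higher, median -0.10). Csf1r counted as lower on a probe set of reduced type (-0.18 ± 0.25), while another read 25.8 and 23.0 against 12.1 and 13.5 (0.93 ± 0.24). Without probe sets of shared or reduced type the macrophage median was 0.32. Striated muscle markers summed to 137 and 159 against 117 and 112 with 2 lower and 2 higher and a median of -0.04. Within them the myosin Myh4 read 66.3 and 51.5 against 12.3 and 17.2, on a probe set of reduced type. Its other probe set, at 8.2 and 11.5 against 6.7 and 8.5, stayed below the floor. Ckm gave -0.09 ± 0.47, and Tnnt3, which passed the filter only through the 8-week samples, was at least 1.14-fold lower. Hepatocyte markers summed to 304 and 270 against 520 and 309 with 3 lower and 4 higher and a median of 0.07, Apoa1 alone giving 267 of the 520. Apoa2, among the 4, passed the filter only through the 16-week samples, so it had to read higher.

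The scale of the arrays decides how a median near 0 reads. The 9 bacterial hybridisation controls all read lower at 16 weeks (median -0.57), and aligning the arrays on them moved the median of the lipid genes to 0.29 and that of all tested genes to 0.53. On that scale 11 lipid genes read lower and 15 higher of 26 tested, with 1 lower and 5 higher at an unadjusted p under 0.05, and Acaa1b was -1.53. Over all genes tested on that scale 15.2% read lower, and by the unadjusted rule 1.11% were lower and 30% higher. After quantile normalization the medians were -0.25 for lipid genes and 0.02 for all genes, with 5 lipid genes lower and 1 higher by the unadjusted rule, beside 6.83% lower and 6.20% higher over all genes. On a common median they were -0.47 for lipid genes and -0.13 for all genes. The median of the lipid genes thus lay 0.25 to 0.34 below that of all genes on each of the 4 scales. Acaa1b, Pparg, Eci1, Dbi, Lpl, Scd1, Fasn, Decr1, Hadhb, Lipe and Fdps read lower at 16 weeks on their brightest probe set on all 4 scales. Acads, Adipoq, Elovl6, Fabp4, Fabp5, Hadh and Idi1 read higher on all 4. The probe sets of Fdps, Acads and Elovl6 disagreed in sign, and the same count over all tested genes was not made.

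**Figure D5:**
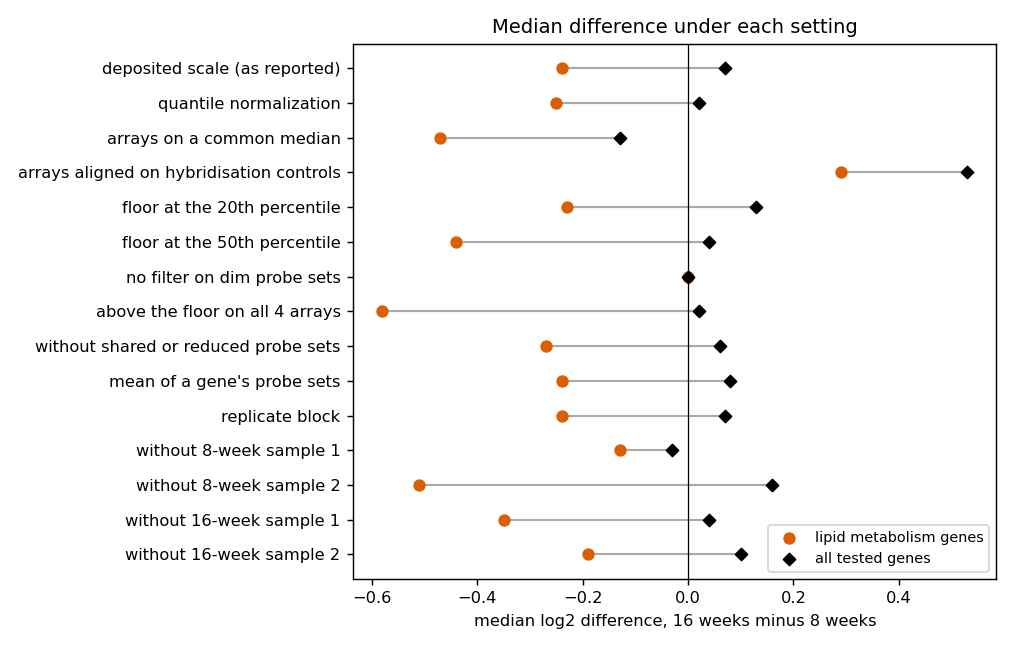
Median log2 difference, 16 weeks minus 8 weeks, of the lipid genes (orange circles) and of all tested genes (black diamonds) under each processing setting. The lipid genes lie left of all genes in every row except the one without a filter on dim probe sets, where both medians are 0.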

How the data were processed

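The authors deposited 1 linear intensity value per probe set and sample, for 12488 probe sets on 4 mouse U74 arrays. The software and scaling behind the intensities are not named in the labels or headers. Their trimmed means lay within 4.76% of the common mean, so the deposited scale was kept. Gene names came from the platform annotation. Of 12422 probe sets other than controls 10833 had 1 symbol, 396 had several and were not named. No genome, promoter or protein sequence was used.

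Values below the floor of 12.15 (median over arrays of the 40th percentile) were set to it and log2 was taken. Probe sets above it on at least 2 arrays, 7883 in all, were fitted with limma 3.58.1 in R 4.3.3 (lmFit and eBayes, 2-sided, Benjamini-Hochberg over all tested probe sets, threshold 0.05). Standard errors are limma's moderated ones. An exact permutation test of 2 against 2 cannot give a p below 0.333. Where several probe sets of a gene were tested, the brightest stood for it. Differences against a group wholly below the floor are bounds. Where only some readings of a group lay below it, as for Elovl6, Idi1, Fabp4 and Nr1h3, the floor stood in for them. The size and standard error of those differences therefore depend on the floor. The script was tested on simulated data. The 14 alternatives covered array scale, floor, filter, probe set choice, the replicate block and leaving out each sample. The lipid genes, their roles and all lists were chosen with earlier results of these data known. Full statistics went to the 10 lipid genes with the smallest p, and up to 3 genes per other list were named in the same order. Apoa1, Acaa1a, Atp4a, Tff1, Retn, Cidec, Lep, Pnpla2, Kcnq1, Lct, Vil1 and Hdc fall outside that order and were picked with their values known. The number of arrays limits the precision.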

Additional observations from a re-analysis of the deposited data

How the results depend on the processing

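With 2 samples per stage no lipid gene passed the adjusted threshold under any of the 14 alternatives, where their adjusted p-values lay between 0.0907 and 1. Of 342 values of single lipid genes under the alternatives, 325 kept their direction. Without the filter on dim probe sets 22 probe sets passed, of which 17 had a stage wholly at the floor and 0 were lipid genes, and the lipid median was 0. The number of lipid genes with an unadjusted p under 0.05 was 8 on a common median, where 16.6% of all tested genes had one against 13.3% on the deposited scale, and 3 to 8 with a sample left out, where 7.2% to 15.3% of all tested genes had one. The 8 came without 16-week sample 1. Their median was -0.47 on a common median, 0.29 on the hybridisation controls, -0.58 above the floor on all 4 arrays, and -0.51 to -0.13 with a sample left out. On the hybridisation controls the sign turned for Acaa2 (0.23), Cpt2 (0.28), Fdft1 (0.29), Sqle (0.35) and Srebf1 (0.52, and 0.03 after quantile normalization). On a common median it turned for Ppara (-0.07) and Scd2 (-0.14). With a sample left out the range was -0.63 to 0.15 for Fdft1, -0.13 to 0.43 for Ppara, -0.25 to 0.42 for Scd2, -0.45 to 0.09 for Sqle and -0.51 to 0.49 for Srebf1. Acads was -0.77 once probe sets of shared or reduced type were dropped and -0.13 as the average over its probe sets. Leaving out the 3 genes whose probe sets disagree, an alternative chosen after seeing the data, gave a lipid median of -0.27. The cause of these shifts was not tested. Deviations of sample 1 from sample 2 were not shared between the stages (correlation -0.05 across probe sets). That value does not settle whether the replicate numbers pair the samples. With the replicate block the lipid median was -0.24, beside 0.07 over all tested genes. By the unadjusted rule 6 lipid genes then had a p under 0.05, as did 12.2% of all tested genes.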
